A study of Homo sapiens with 6 samples.

Results

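The genes described here are 36 genes of cholesterol and fatty acid synthesis, taken by name from the symbols of the gene table of the series, which lists 17064 genes. They were picked as known targets and regulators of the sterol response, with the difference of SCD between libraries already in view. The values of SCD, and every count of the 36 genes that compares libraries, are therefore descriptions of these libraries. All 36 genes passed the filter on low counts that left 13123 genes for testing. Of the 36, 5 are regulators, 18 are enzymes of sterol synthesis, 11 act in fatty acid synthesis and use, and 2 move sterol.

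RNA was measured in MDA-MB-231, a human triple-negative breast cancer line derived from a metastatic site. Cells were transduced with the lentiviral vector lentiCRISPRv2, which carries Cas9 and, for the knockouts, a guide. The cells were selected with puromycin or blasticidin without picking clones. Each library is therefore a pool of transduced cells, with a gene targeted only in the knockouts. The study asked whether the kinases MRCKα (gene CDC42BPA) and MRCKβ (gene CDC42BPB) can stand in for each other. The groups were vector control with the empty vector (vector 1 and vector 2, from separate transductions), MRCKα KO with 1 library, MRCKβ KO with 1 library, and DKO with both genes targeted (DKO 1 and DKO 2, made with the guide 1 or the guide 2 set, without a label that says which).

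The sterol regulatory element binding proteins, encoded by SREBF1 and SREBF2, are transcription factors that are made as membrane proteins of the endoplasmic reticulum. When sterol is low, SCAP escorts them to the Golgi, where proteases release the part that enters the nucleus. When sterol is high, INSIG1 and INSIG2 hold SCAP back. The product of SREBF2 acts mainly on genes of cholesterol synthesis and that of SREBF1 mainly on genes of fatty acid synthesis, and both share many targets, among them INSIG1 and the SREBF genes themselves. Breast cancer cells are known to draw on both pathways for membrane lipids.

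Promoter sequences from RefSeq (GRCh38.p14) were used for 32 of the 36 genes, in 45 windows of 300 bases that run from 250 bases before to 50 bases after a start site. No window was used for FDFT1, SQLE, ACAT2 and FASN. The windows used leave out a whole chromosome for every gene, so the shares of all genes given below leave it out too. The 250 bases before the start site are shown for SREBF2, which was the only one of the 32 genes with a letter match to a sterol regulatory element, for SCD, the gene with the widest range between libraries, and for SCD5, its paralog, which did not follow SCD. Capitals mark the sterol regulatory element and CCAAT boxes, the latter reading ATTGG where the box lies on the other strand.
SREBF2, chr22:41832855-41833104, plus strand: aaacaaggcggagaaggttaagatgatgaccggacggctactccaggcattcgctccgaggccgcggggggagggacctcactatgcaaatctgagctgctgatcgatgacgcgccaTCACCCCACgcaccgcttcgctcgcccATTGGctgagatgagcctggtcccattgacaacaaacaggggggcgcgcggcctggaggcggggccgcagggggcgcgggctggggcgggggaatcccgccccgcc
SCD, chr10:100346983-100347232, plus strand: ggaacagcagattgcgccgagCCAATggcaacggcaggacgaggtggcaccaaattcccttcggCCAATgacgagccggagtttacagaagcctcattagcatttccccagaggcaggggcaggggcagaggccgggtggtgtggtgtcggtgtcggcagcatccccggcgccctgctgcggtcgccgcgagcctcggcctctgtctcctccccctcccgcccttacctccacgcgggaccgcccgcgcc
SCD5, chr4:82798797-82799046, minus strand: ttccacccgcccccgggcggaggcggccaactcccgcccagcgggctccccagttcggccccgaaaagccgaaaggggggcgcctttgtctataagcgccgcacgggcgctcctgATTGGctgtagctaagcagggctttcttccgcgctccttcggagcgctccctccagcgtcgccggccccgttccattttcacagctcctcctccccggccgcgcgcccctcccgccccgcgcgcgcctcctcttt

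The letters of the sterol regulatory element, TCACNCCAC on either strand, began 133 bases before the start site of SREBF2, and a CCAAT box on the other strand began 106 bases before it. Among all RefSeq genes with a window used here, 1.39% held the element. CCAAT boxes began 229 and 186 bases before the start site of SCD, and 1 on the other strand began 135 bases before that of SCD5. A CCAAT box was in a window of 23 of the 32 genes, against 39.7% of all genes. A GC box, GGGCGG on either strand, was in a window of 31 of the 32, against 48.3% of all genes, and NSDHL was the exception. An E-box, CACGTG, was in a window of ABCA1, INSIG1, LSS, SC5D and SCAP, which is 5 of the 32, against 8.77% of all genes. None of the motifs contains another in full, and genes with several windows have more letters in which to match. These are letter matches in short windows, and binding was not measured.

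The libraries held between 10349898 and 10657857 expected counts. The RNA of the targeted genes was present in every library, with CDC42BPA between 23.3 and 36.4 FPKM (fragments per kilobase of transcript, scaled to the size of the library) and CDC42BPB between 23.4 and 30.3 FPKM, so RNA level gave no check of the knockout labels. All 5 markers of the mesenchymal-like line (VIM, CD44, AXL, CAV1 and MSN) had at least 10 counts in every library, with a summed FPKM between 2449 and 3137. Of the 6 luminal markers 4 had at least 10 counts in every library, among them KRT8, while the defining hormone receptor genes ESR1 and PGR stayed at or below 0.87 and 0.03 FPKM. The summed FPKM was at most 0.18 for hepatocyte, 2.17 for leukocyte, 3.75 for adipocyte and 11.2 for fibroblast markers. The 2 sets of replicates differed by more than sampling noise, with a chi-square per degree of freedom of 22.4 for vector and 10.5 for DKO, so each was counted as a library of its own. The p-values below measure only the spread between these transductions and guide sets. In bulk RNA, fewer cells with a transcript and less transcript per cell cannot be told apart.

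By level, which FPKM allows between genes of different length, the 36 genes spanned a wide range. In vector the highest means were SCD with 153 ± 123 FPKM (SD, n = 2), FDPS with 121 ± 37.5, FADS2 with 109 ± 49.9 and FADS1 with 96.1 ± 9.84. The lowest were ABCA1 with 0.885 ± 0.488 and TM7SF2 with 1.97 ± 1.15. TM7SF2 rested on 19 to 47 counts and ABCA1 on 59 to 136 counts in a library, while SCD had between 3764 and 14079 counts.

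**Figure D1:**
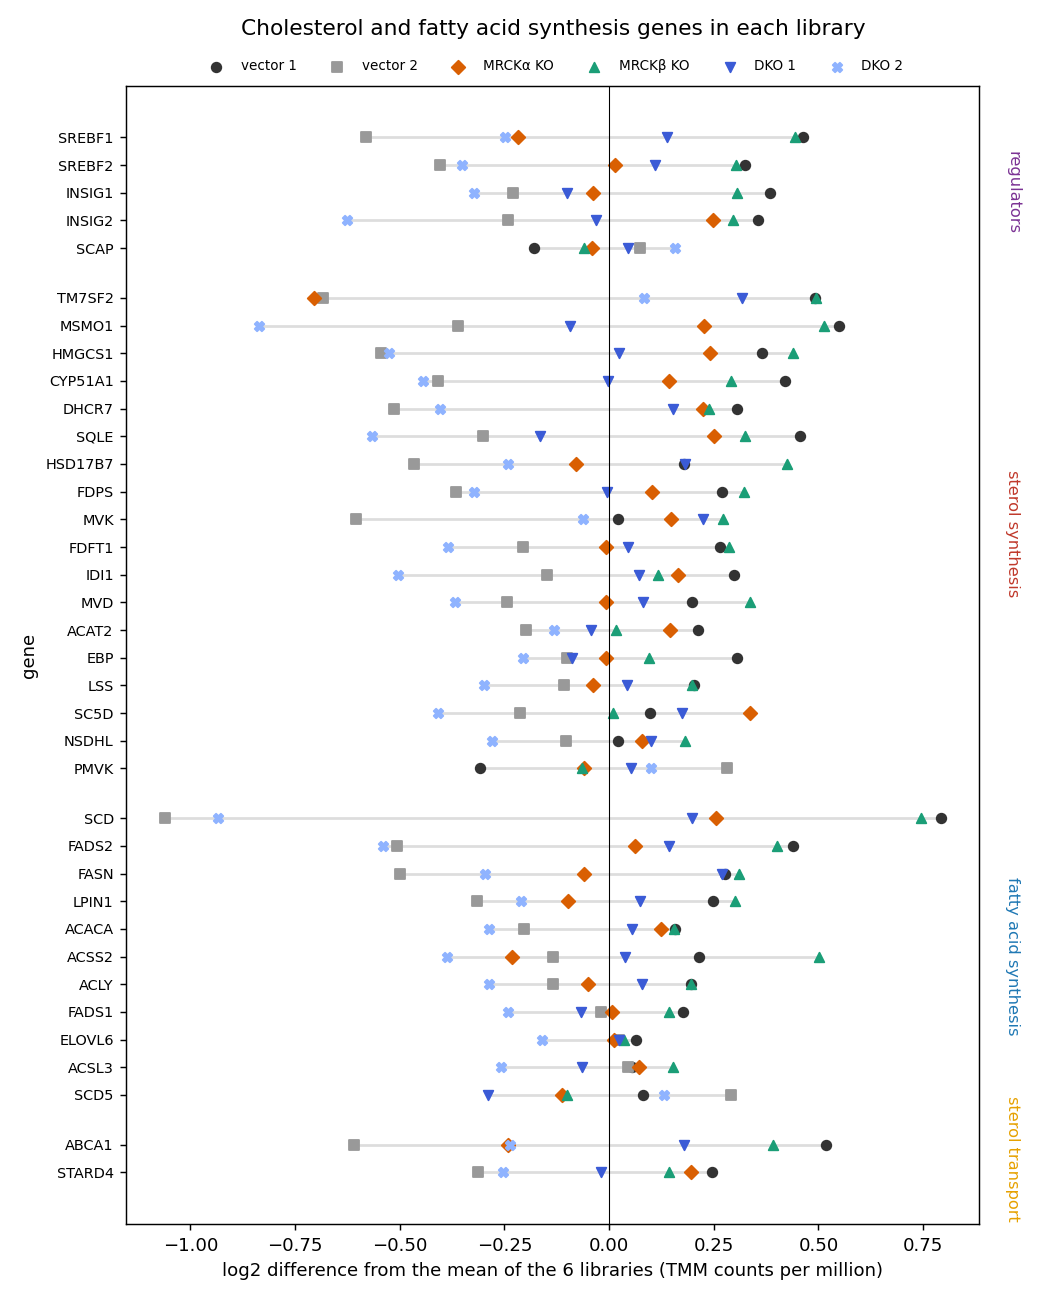
Log2 difference of each of the 36 genes (rows, grouped by role) in each of the 6 libraries from the mean of the 6 libraries, on the scale of library-scaled counts normalised by TMM (trimmed mean of M values), with 1 symbol per library and a grey line over the range. In 27 of the 36 rows the squares of vector 2 and the crosses of DKO 2 are the 2 lowest, and SCD has the widest range, 3.61-fold from lowest to highest.

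The first comparison was between the libraries themselves, since it sets the spread against which any knockout can be read. Genes of both pathways were lower in vector 2 than in vector 1, and lower in DKO 2 than in DKO 1. Of the 36 genes, 33 were lower in vector 2 than in vector 1, against 50.1% of all genes tested, and 33 were lower in DKO 2 than in DKO 1, against 49.5%. These were the same 33 genes, and 31.0% of all genes were lower in both pairs. The 3 exceptions, SCAP, PMVK and SCD5, were higher in vector 2 and in DKO 2.

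The median log2 ratio of the 36 genes was -0.56 for vector 2 against vector 1 and -0.38 for DKO 2 against DKO 1, with a median of all genes near 0 in both. On the scale of TMM-normalised counts, which all fold ranges given here use, 17 of the 36 were at least 1.5-fold lower in vector 2 than in vector 1, against 9.67% of all genes, and 1, PMVK, was at least 1.5-fold higher, against 7.4%. In DKO 2, FADS2, INSIG2, MSMO1 and SCD were at least 1.5-fold lower than in DKO 1, which is 4 of 36 against 6.4% of all genes, and 0 were at least 1.5-fold higher, against 4.35%. Those 4 genes were at least 1.5-fold lower in both pairs, against 2.94% of all genes. Counting error alone gave 95% intervals that left out 0 for 33 of the 36 genes between the vector libraries and for 30 between the DKO libraries. These are not the 33 lower genes. In the vector pair they include SCAP, PMVK and SCD5, which were higher in vector 2, and leave out NSDHL, ELOVL6 and ACSL3. In the DKO pair they include SCD5, which was higher in DKO 2. The share of all genes with such intervals was not computed, so the interval counts cannot be read as particular to the 36 genes. Because differences between libraries drew attention to these genes, none of these counts is a test.

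**Figure D2:**
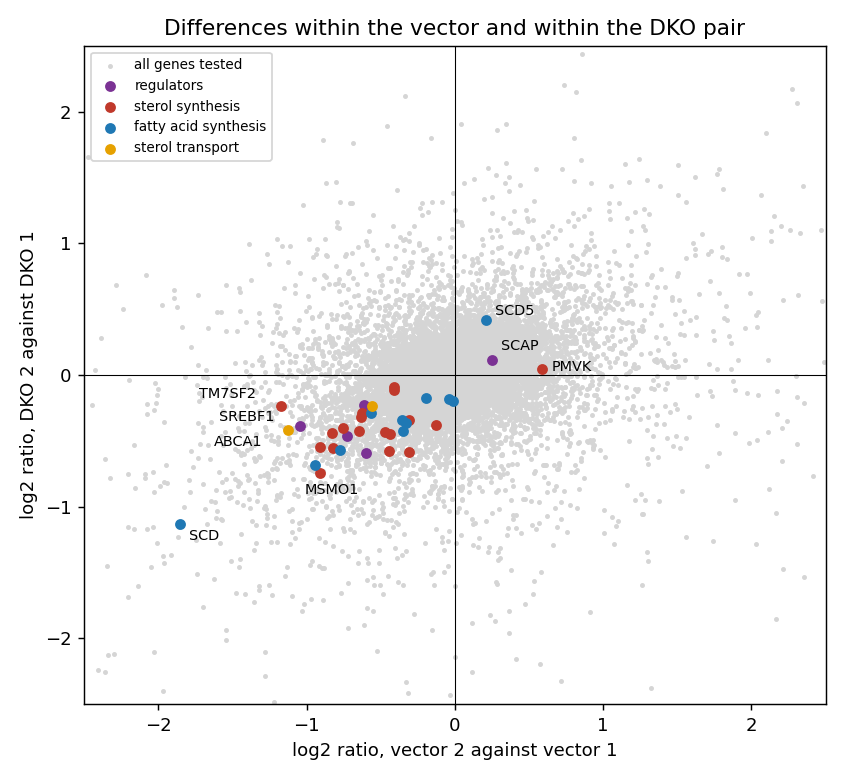
Log2 ratio of vector 2 against vector 1 (horizontal) and of DKO 2 against DKO 1 (vertical) for the 13123 genes tested (grey, cut at 2.5 on both axes) and the 36 genes (coloured by role). The lower left field holds 33 of the 36, with SCD farthest out, and SCAP, PMVK and SCD5 lie in the upper right.

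Among the regulators, SREBF1, which encodes the factor with the larger part in fatty acid synthesis, was at 29.5 FPKM in vector 1 and 14.1 in vector 2, 23.9 and 18.3 in the DKO libraries 1 and 2, 18.6 in MRCKα KO and 29.3 in MRCKβ KO. Vector 1 and MRCKβ KO were highest and vector 2 was lowest, with both DKO libraries between the vector libraries. SREBF2, which encodes the factor with the larger part in cholesterol synthesis, was at 48.0 and 28.2 FPKM in the vector libraries 1 and 2, 39.6 in MRCKα KO, 47.2 with MRCKβ targeted, and 41.4 and 31.6 in DKO 1 and DKO 2. The 6 libraries stood in the same order for both genes. Exons of SREBF1 overlap those of RAI1 on the other strand, so part of its counts is uncertain.

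INSIG1, the retention factor that is itself a target, was at 71.9 FPKM in vector 1 but 45.8 in vector 2, 50.4 in DKO 1 but 44.9 in DKO 2, 54.2 in MRCKα KO and 67.5 in MRCKβ KO. INSIG2, its homolog, was at 10.6 FPKM in vector 1 and 6.87 in vector 2, 8.09 and 5.38 in the DKO libraries 1 and 2, 10.2 in MRCKα KO and 10.2 in MRCKβ KO. For both INSIG genes DKO 2 was the lowest library and vector 1 the highest, and DKO 1 lay between the vector libraries. SCAP, the escort protein, went the other way, with 16.8 and 20.3 FPKM in the vector libraries 1 and 2, 18.6 in MRCKα KO, 18.1 with MRCKβ targeted, and 20.3 and 21.7 in DKO 1 and DKO 2. Its range from lowest to highest library was 1.26-fold, the DKO libraries overlapped the vector libraries, and the counting interval of its ratio between DKO 2 and DKO 1 included 0.

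Sterol synthesis starts with the joining of acetyl units. HMGCS1, the synthase that makes HMG-CoA, was at 24.8 FPKM in vector 1 but 13.1 in vector 2, 19.96 in DKO 1 but 13.8 in DKO 2, 23.3 in MRCKα KO and 26.02 in MRCKβ KO. Vector 2 and DKO 2 stood together at the bottom, and the 4 other libraries were at least 19.96 FPKM. ACAT2, the thiolase of the first step, ranged from 71.2 FPKM in vector 2 to 95.1 FPKM in vector 1, although its exons overlap those of SOD2 and TCP1 and reads may be shared. The mevalonate enzymes MVK and PMVK, both kinases, and MVD, a decarboxylase, did not share 1 pattern. MVK had its lowest level in vector 2 with 10.5 FPKM, and DKO 1 with 19.39 and MRCKβ KO with 19.35 FPKM were nearly level at the top. By TMM-normalised counts, the scale of the counts of highest and lowest libraries given later, MRCKβ KO was the highest for MVK. Its exons overlap those of MMAB. PMVK was lowest in vector 1 with 9.46 FPKM and highest in vector 2 with 15.3 FPKM, and MVD was lowest in DKO 2 with 16.9 and highest in MRCKβ KO with 27.1 FPKM.

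The isoprenoid enzymes IDI1 and FDPS and the squalene synthase FDFT1 had vector 2 and DKO 2 as their 2 lowest libraries. IDI1 lay between 21.9 FPKM in DKO 2 and 37.5 in vector 1, FDPS between 94.7 in vector 2 and 155 in MRCKβ KO, and FDFT1 between 68.9 in DKO 2 and 113 in MRCKβ KO. FDPS has 8 annotated pseudogenes and CYP51A1, further down the pathway, has 3, so their counts are uncertain in part. SQLE, the squalene epoxidase and a rate-limiting step of the pathway, was at 20.8 FPKM in vector 1 and 12.2 in vector 2, 13.5 and 10.2 in the DKO libraries 1 and 2, 18.0 in MRCKα KO and 18.7 in MRCKβ KO. Both DKO libraries and vector 2 were at the low end of SQLE, with vector 2 between DKO 1 and DKO 2.

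Downstream of lanosterol, MSMO1, the C-4 methylsterol oxidase, had the widest range among the sterol genes with more than 100 counts in every library. MSMO1 was at 68.8 and 36.1 FPKM in the vector libraries 1 and 2, 54.7 in MRCKα KO, 66.3 with MRCKβ targeted, and 44.2 and 26.4 in DKO 1 and DKO 2, a range of 2.62-fold. DKO 1 was above vector 2 and DKO 2 was the lowest library, so the groups overlapped. HSD17B7, a sterol reductase with 2 pseudogenes, was at 15.3 FPKM in vector 1 but 9.93 in vector 2, 15.6 in DKO 1 but 11.7 in DKO 2, 12.9 in MRCKα KO and 18.5 in MRCKβ KO. Here MRCKβ KO was highest and vector 2 lowest, and DKO 1 was near vector 1.

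TM7SF2, a sterol reductase, was at 2.78 FPKM in vector 1 and 1.15 in vector 2, 2.45 and 2.08 in the DKO libraries 1 and 2, 1.14 in MRCKα KO and 2.76 in MRCKβ KO. It was the only one of the 36 genes with its lowest level in MRCKα KO, where vector 2 was at the same level, and it overlaps VPS51. LSS, the lanosterol synthase, and CYP51A1, the lanosterol demethylase, ranged 1.42-fold and 1.82-fold over the libraries, with DKO 2 lowest and vector 1 highest in both. NSDHL, a dehydrogenase of the C-4 demethylation, ranged 1.38-fold, EBP, a sterol isomerase, 1.43-fold, SC5D, a sterol desaturase, 1.68-fold and DHCR7, which makes the last step to cholesterol, 1.77-fold. SC5D was the only gene of the 36 with its highest level in MRCKα KO, at 12 FPKM against 10.1 in vector 1 and 8.08 in vector 2.

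Fatty acid synthesis starts from citrate or acetate. ACLY, which cleaves citrate, and ACACA, the carboxylase that commits acetyl-CoA, ranged 1.4-fold and 1.36-fold, with DKO 2 lowest in both. FASN, the synthase, ranged from 34.4 FPKM in vector 2 to 60.7 FPKM in MRCKβ KO, with 59.5 in DKO 1 and 40.5 in DKO 2. ACSS2, which activates acetate, was at 16.7 and 12.9 FPKM in the vector libraries 1 and 2, 12.3 in MRCKα KO, 20.3 with MRCKβ targeted, and 14.9 and 11.1 in DKO 1 and DKO 2. ACSS2 was below both vector libraries in MRCKα KO and above both in MRCKβ KO.

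SCD, the stearoyl-CoA desaturase that makes oleate, was at 239 FPKM in vector 1 but 65.8 in vector 2, 160 in DKO 1 but 73.7 in DKO 2, 166 in MRCKα KO and 232 in MRCKβ KO. Vector 1 and MRCKβ KO formed the top, MRCKα KO and DKO 1 the middle, and vector 2 and DKO 2 the bottom, so that vector and DKO each had 1 library at the bottom and overlapped. SCD was 3.61-fold lower in vector 2 than in vector 1, with 3764 counts against 14079, a log2 ratio of -1.85 with a 95% counting interval from -1.90 to -1.80. It was 2.19-fold lower in DKO 2 than in DKO 1, a log2 ratio of -1.13 with an interval from -1.18 to -1.08. These intervals cover counting error only, and SCD has 1 annotated pseudogene. SCD5, the second human desaturase of this type, was at 21.4 FPKM in vector 1 and 24 in vector 2, 17.0 and 23.1 in the DKO libraries 1 and 2, 19.3 in MRCKα KO and 19.1 in MRCKβ KO. For SCD5 vector 2 and DKO 2 were the 2 highest libraries and DKO 1 the lowest, and both single knockout libraries were below both vector libraries.

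FADS2, the desaturase of polyunsaturated fatty acids, was at 144 and 73.7 FPKM in the vector libraries 1 and 2, 112 in MRCKα KO, 141 with MRCKβ targeted, and 118 and 74.7 in DKO 1 and DKO 2. In FPKM the library order was that of SCD with MRCKα KO and DKO 1 exchanged, and the range was 1.97-fold. Its neighbour FADS1, whose exons overlap those of FADS2, ranged only 1.34-fold. ELOVL6, the elongase that acts before SCD, had the narrowest range of the 36 genes at 1.17-fold. ACSL3, which activates fatty acids, ranged 1.33-fold, and LPIN1, a phosphatidate phosphatase, 1.53-fold.

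Of the sterol transport genes, ABCA1, which exports cholesterol and is known mainly as a target of the LXR receptors, was at 1.23 FPKM in vector 1 but 0.54 in vector 2, 0.97 in DKO 1 but 0.73 in DKO 2, 0.73 in MRCKα KO and 1.13 in MRCKβ KO. Vector 2 was the lowest, and DKO 2 and MRCKα KO were level. STARD4, a cytosolic sterol carrier, was between 16.9 FPKM in vector 2 and 28.8 FPKM in vector 1. By role, the median log2 ratio of vector 2 against vector 1 was -0.61 for the regulators, -0.55 for sterol synthesis, -0.35 for fatty acid synthesis and -0.84 for the 2 transport genes, and that of DKO 2 against DKO 1 was -0.39, -0.41, -0.34 and -0.32 in the same order.

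**Figure D3:**
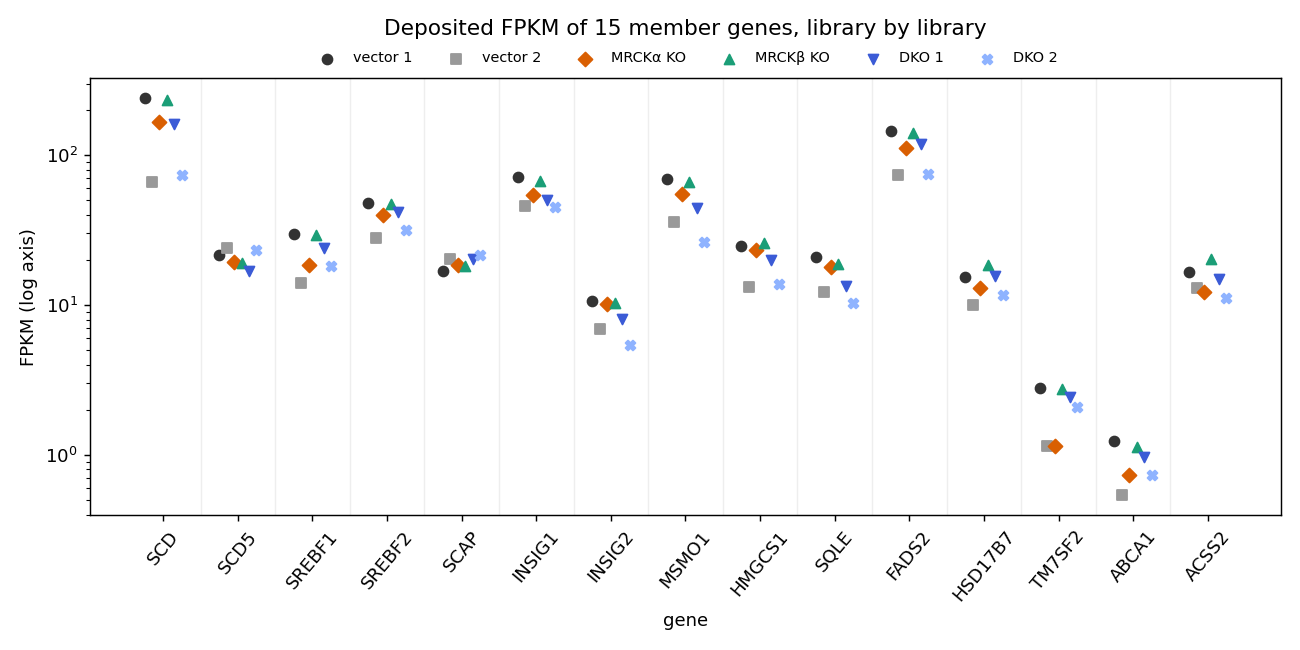
FPKM on a log axis of SCD, SCD5, the 5 regulators and the 8 other genes with the widest range, with 1 symbol for each of the 6 libraries. Vector 1 and MRCKβ KO lie near the top and vector 2 and DKO 2 near the bottom for most genes. The order is turned for SCAP, and for SCD5 vector 2 and DKO 2 are the highest but DKO 1 is the lowest.

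By TMM-normalised counts over the 36 genes, the highest library was vector 1 in 20, against 16.9% of all genes, and MRCKβ KO in 12, against 15.7%. The lowest library was DKO 2 in 19, against 17.6%, and vector 2 in 13, against 22.8%. Vector 2 and DKO 2 were the 2 lowest libraries in 27 of the 36 genes, against 15.8%, and vector 1 and MRCKβ KO the 2 highest in 25, against 12.8%. Both held in 20 genes, against 5.52% of all genes. The libraries therefore ordered alike in most genes of sterol and of fatty acid synthesis, and that order did not follow the labelled genotypes.

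Some markers of other cell types moved in part with this order. The summed FPKM of the 6 fibroblast markers was 11.2 in vector 1 but 3.75 in vector 2, 6.13 in DKO 1 but 3.97 in DKO 2, and stood at 7.28 in MRCKβ KO and 4.67 in MRCKα KO. Between DKO 1 and DKO 2 the drop was mostly PDGFRB, at 3.15 against 1.14 FPKM, while COL1A1 went the other way, at 2.34 against 2.56. Both genes were lower in vector 2 than in vector 1. The adipocyte sum did not follow the order in vector, at 2.67 in vector 1 and 2.72 in vector 2, and was 3.75 in DKO 1 and 2.66 in DKO 2. The summed FPKM of the 3 leukocyte markers in the table was 0.47 in vector 2, 0.60 in DKO 2 and between 1.48 and 2.17 in the 4 other libraries. The sum of the 6 luminal markers, which was mostly KRT8, was highest in vector 1 at 239 and lowest in DKO 2 at 156, with 206 in vector 2, while ESR1 was at 0.53 FPKM in vector 1 against 0.87 in vector 2, and GATA3 at 2.59 against 3.79. The sum of the 5 markers of the line, which was mostly VIM, was highest in vector 2 at 3137 and in DKO 2 at 2862, and between 2449 and 2672 in the others. Of these 5, VIM, CD44 and AXL were higher in vector 2 than in vector 1 and in DKO 2 than in DKO 1. CAV1 was lower in both pairs, at 281 against 178 FPKM in vector and 195 against 166 in DKO, and so was MSN, at 357 against 336 and 369 against 347. Only 2 of the 6 fibroblast markers and 0 of the 3 leukocyte markers had 10 counts in every library. DCN was listed at 0 in vector 2, LUM at 0 in vector 2, MRCKβ KO and DKO 2, and CD3E at 0 in all but vector 2. The part of these markers in the result was not tested. Library totals differed by little, and the labels name no batch, so no value within a batch could be given.

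The comparison of DKO with vector asked what the loss of both kinases did to these genes, and is the only one with 2 libraries on each side. By the quasi-likelihood test of edgeR, adjusted by Benjamini-Hochberg over the 13123 genes, 0 of the 36 genes had an adjusted p under 0.05, against 0.0% of all genes. The adjusted p was 0.99959 for each of the 36 genes. At an unadjusted p under 0.05 there were 0 of the 36 in either direction, against 179 genes or 1.36% of all genes higher in DKO and 134 or 1.02% lower. DESeq2 called 4 genes of all, with 0 of the 36 among them.

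The fitted log2 fold changes of the 36 genes ran from -0.58 for MSMO1 to 0.35 for MVK, with a median of -0.13, and 30 of them were below 0, against 6658 of the 13123 genes tested. MSMO1 was at 52.4 ± 23.2 FPKM in vector and 35.3 ± 12.5 in DKO (SD, n = 2 each), a fitted change of -0.58 ± 0.35 (SE). SQLE had a fitted change of -0.48 ± 0.27, INSIG2 of -0.39 ± 0.29 and INSIG1 of -0.32 ± 0.21. SREBF1 was at 21.8 ± 10.9 FPKM in vector and 21.1 ± 3.99 in DKO, and SREBF2 at 38.1 ± 14 and 36.5 ± 6.91. In these 6 genes the difference between the groups was smaller than the spread within vector.

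The direction of the median rested on single libraries. It was 0.11 without vector 1, with 12 of the 36 genes lower in DKO, and 0.04 without DKO 2, with 16 lower. It was -0.35 without vector 2 and -0.32 without DKO 1, with 33 and 32 lower. SCD, which is given here as a description, had a fitted log2 fold change of -0.40 ± 0.61 (SE), which became 0.81 without vector 1 and -1.05 without vector 2.

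In 0 of the 36 genes were both DKO libraries above both vector libraries, against 14.5% of all genes, and in 2 both were below, against 14.6%. The 2 were FADS1, the delta-5 desaturase, and ACSL3. FADS1 was at 103 FPKM in vector 1, 89.2 in vector 2, 89.1 in DKO 1 and 80.1 in DKO 2, so that vector 2 and DKO 1 were nearly level. ACSL3 was at 39.5 FPKM in vector 1, 38.9 in vector 2, 36.4 in DKO 1 and 31.8 in DKO 2, a fitted log2 fold change of -0.20 ± 0.12 (SE). DKO 1 lay between the vector libraries in 29 of the 36 genes, against 45.0% of all genes, and DKO 2 in 16, against 41.0%. DKO 1 was below vector 1 in 30 genes, against 50.2%, and DKO 2 below vector 2 in 21, against 50.6%.

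With 1 library for each single knockout, no test could be made there, and the values compare libraries. MRCKα KO lay between the vector libraries in 28 of the 36 genes, against 40.8% of all genes. It was above both in ACSL3, MVK, NSDHL and SC5D, which is 4 genes against 29.9%, and below both in ACSS2, ELOVL6, SCD5 and TM7SF2, 4 genes against 29.3%. MRCKβ KO lay between them in 23 genes, against 40.7%, above both in 12, against 29.7%, and below both in SCD5 alone, against 29.5%. In MRCKα KO 0 of the 36 genes were 1.5-fold above both vector libraries (1.6% of all genes) and 0 were 1.5-fold below both (2.58%). In MRCKβ KO these counts were 0 (1.24%) and 0 (1.19%).

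The 12 genes above both vector libraries in MRCKβ KO were ACSL3, ACSS2, FASN, FDFT1, FDPS, HMGCS1, HSD17B7, LPIN1, MVD, MVK, NSDHL and TM7SF2, and they include genes of both pathways. Against the mean of the vector libraries the median log2 ratio of the 36 genes was 0.05 for MRCKα KO, 0.25 for MRCKβ KO and -0.12 for DKO, with medians of all genes at 0.01, 0.01 and -0.00. These medians moved with the vector library taken as reference. The median of MRCKα KO was -0.20 against vector 1 and 0.33 against vector 2, and that of MRCKβ KO was -0.02 and 0.56. DKO 1 stood at -0.22 against vector 1 and 0.26 against vector 2, and DKO 2 at -0.54 and -0.09.

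**Figure D4:**
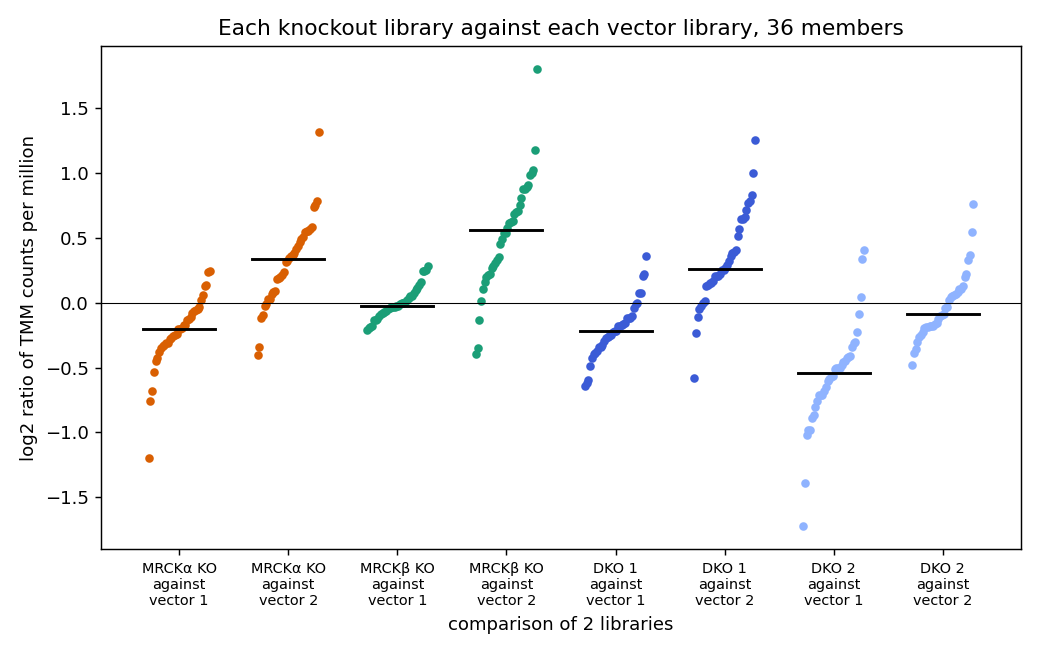
Log2 ratio of each knockout library against each vector library (8 comparisons on the horizontal axis), with 1 point for each of the 36 genes and a bar at the median. MRCKβ KO has its median at -0.02 against vector 1 and 0.56 against vector 2, and DKO 2 has its median below 0 against both.

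The study's own rule averaged FPKM within a group, left out genes more than 2-fold apart between replicates and took a 2-fold change as different. It left out SREBF1, TM7SF2, SCD and ABCA1, whose vector libraries were more than 2-fold apart. Of the 32 genes it kept, 0 passed for MRCKα KO (1.94% of all genes passed as higher and 2.48% as lower), 0 for MRCKβ KO (1.68% and 1.84%) and 0 for DKO (1.02% and 0.759%). For the 4 genes left out, log2 ratios of TMM-normalised counts are given against each vector library. MRCKβ KO against vector 2 stood at 1.02 for SREBF1, 1.18 for TM7SF2, 1.81 for SCD and 1.00 for ABCA1. Against vector 1 these ratios were -0.02, 0.003, -0.05 and -0.13. In MRCKα KO, SCD was at 1.32 against vector 2 and -0.54 against vector 1, and TM7SF2 at -0.02 and -1.20.

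Other genes of lipid metabolism were read beside the 36. In DKO against vector, the quasi-likelihood test of edgeR, adjusted by Benjamini-Hochberg over all genes tested, gave 0 calls in either direction among 14 further genes of sterol synthesis and uptake, 17 of SREBP processing and sterol-regulated degradation, 8 LXR receptors and targets, 24 of fatty acid and glycerolipid synthesis and 17 of lipid droplets, fatty acid uptake and oxidation. At an unadjusted p under 0.05 the 5 lists held 0 genes higher in DKO, against 1.36% of all genes, and 3 lower, against 1.02%, namely ME1, ELOVL7 and ANGPTL4. Each of these 3, and each further gene named next, had an adjusted p of 0.99959 in that test.

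ME1, the malic enzyme that supplies NADPH for fatty acid synthesis, was at 14.6 FPKM in vector 1 and 14.9 in vector 2, 10.2 and 9 in the DKO libraries 1 and 2, 9.87 in MRCKα KO and 13.7 in MRCKβ KO. The DKO libraries did not overlap the vector libraries, and the fitted log2 fold change was -0.66 ± 0.14 (SE). ANGPTL4, a secreted inhibitor of lipoprotein lipase, was at 3.48 and 4.99 FPKM in vector, 1.99 and 0.91 in DKO, 1.19 in MRCKα KO and 2.69 in MRCKβ KO, with a fitted change of -1.58 ± 0.48. ANGPTL4 rested on 68 and 98 counts in vector and 39 and 17 in DKO, and its fitted change was -2.31 without DKO 1 and -1.10 without DKO 2. ELOVL7, an elongase, had a fitted change of -0.49 ± 0.18, and PDK4, which restrains pyruvate dehydrogenase, one of -1.25 ± 0.67. PDK4 had 38 and 12 counts in vector and 9 and 12 in DKO, and its fitted change was -0.23 without vector 1. NPC2, a lysosomal sterol carrier, was at -0.36 ± 0.15, NR1H3, an LXR receptor, at -0.36 ± 0.29, MBTPS2, a protease that releases the SREBP factors, at -0.26 ± 0.13, and FBXW7, which marks them for degradation, at -0.19 ± 0.16. Without vector 1 the value of NPC2 was -0.21, and without vector 2 that of NR1H3 was -0.18.

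Between the vector libraries the medians of the lists are given without a test. The median log2 ratio of vector 2 against vector 1 was -0.34 for the further genes of sterol synthesis and uptake, -0.02 for SREBP processing, -0.10 for LXR genes, -0.06 for fatty acid and glycerolipid synthesis and 0.11 for lipid droplets, uptake and oxidation, beside -0.56 for the 36 genes. For DKO 2 against DKO 1 the medians in the same order were -0.15, -0.04, -0.10, -0.17 and -0.04, beside -0.38 for the 36 genes, so the further sterol genes were below fatty acid and glycerolipid synthesis in the vector pair but not in the DKO pair. Of the further genes of sterol synthesis and uptake, 11 of 14 were lower in vector 2 than in vector 1 and 11 of 14 lower in DKO 2 than in DKO 1, among them NPC1, the lysosomal cholesterol exporter, which was at 39.8 and 27.6 FPKM in vector and 45.5 and 34.6 in DKO. Among the SREBP processing genes these counts were 10 of 17 and 10 of 17, among the LXR genes 6 of 8 and 6 of 8, in fatty acid and glycerolipid synthesis 14 of 24 and 17 of 24, and in the last list 6 of 17 and 9 of 17, beside 50.1% and 49.5% of all genes.

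**Figure D5:**
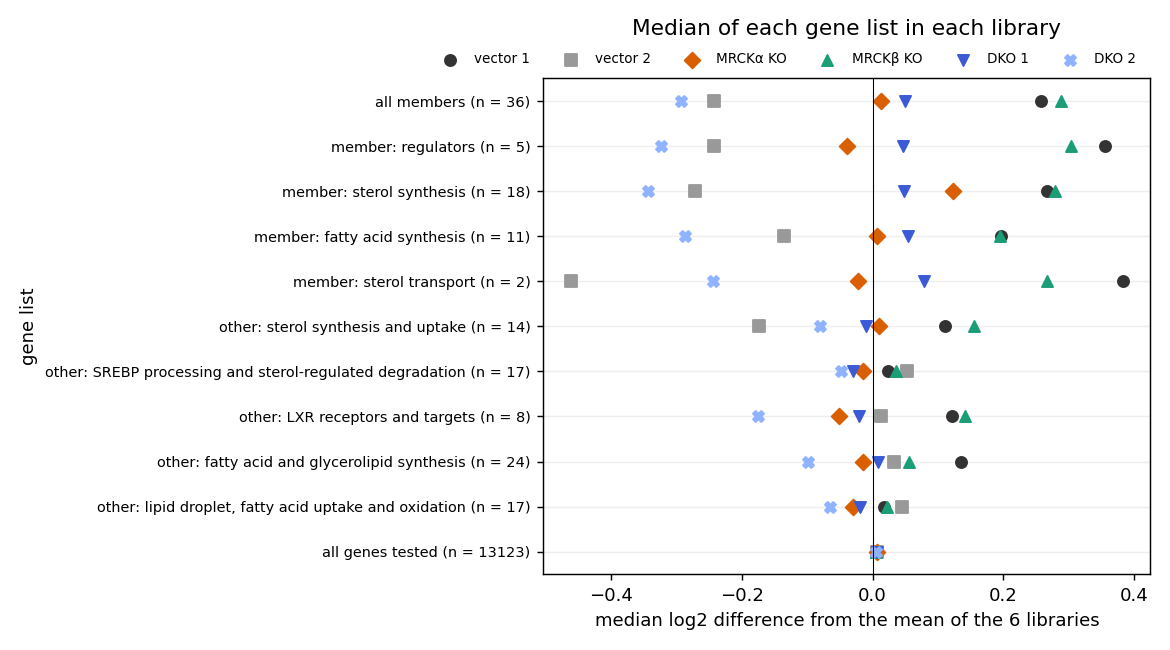
Median log2 difference from the mean of the 6 libraries for the 36 genes, their 4 roles, the 5 further lists and all genes tested (rows, number of genes in brackets), with 1 symbol per library. The symbols of the 36 genes spread from -0.29 in DKO 2 to 0.29 in MRCKβ KO, and those of all genes tested lie together at 0.01.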

How the data were processed

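RNA of 6 MDA-MB-231 libraries was sequenced by BGI as single-end reads. The authors deposited expected counts per gene, which are not normalised and need not be whole, and FPKM values, scaled by transcript length and library total. The submitters' processing notes name HISAT, Bowtie2, RSEM and the build GRCh38.p11, without tool versions, and the strand of the libraries is not given in the sources used here. Groups follow the labels.

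Expected counts were rounded. Genes passing filterByExpr in vector and DKO (13123 of 17064) were tested by edgeR 4.0.16 (R 4.3.3), with TMM, glmQLFit and glmQLFTest, 4 libraries, no block, Benjamini-Hochberg adjustment and a threshold of 0.05. Ratios between libraries use log2 CPM after TMM with a prior count of 2 over all 6 libraries. The 2-fold rule uses the deposited FPKM values as they stand. Counting intervals are exact 95% binomial intervals of the ratio of 2 counts. At 10349898 to 10657857 counts per library, values of genes under 100 counts, here TM7SF2 and in part ABCA1, are imprecise. Scripts were tested on simulated counts. Overlapping genes and pseudogenes were read from GENCODE v29 and promoters from RefSeq tables, and in 39 of the 45 windows the last bases lay in a transcript of the gene on its sense strand.

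The 36 genes, the lists and the tests were chosen with earlier results of these data known. Named library by library are the regulators, SCD, SCD5 and the 8 other genes with the widest range and at least 10 counts in every library, while of each further list the 2 genes with the largest fitted change in DKO are named, some with that change alone. Of these, 2 are not reported here, and NPC1 was added after its values were seen. Alternatives were RLE and library-size scaling, no filter, at least 10 counts in every library, DESeq2 1.42.0, all 6 libraries in one fit, a replicate block, limma 3.58.1 on log2 FPKM (mean FPKM 0.5 or more) with pseudocounts of 0.1 and 1, the 2-fold rule with these pseudocounts, at a mean FPKM of at least 1 or without its replicate filter, and each replicate left out in turn.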

Additional observations from a re-analysis of the deposited data

How the results depend on the processing

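The number of the 36 genes called in DKO against vector was 0 under every alternative run. Over all genes tested, 0 were called by edgeR's quasi-likelihood test, 5 with the replicate block, 4 with the DESeq2 Wald test, and between 0 and 5 when 1 replicate was left out. The replicate number is shared by vector and DKO but marks nothing that the labels tie together. The deviations of same-numbered libraries correlated at 0.303 over 13123 genes, and with 2 numbers this does not show pairing. With the block in edgeR's quasi-likelihood test the median of the 36 genes was -0.12, 6 had an unadjusted p under 0.05 and the lowest adjusted p was 0.314. The share of all genes at that unadjusted p with the block is not given here, so the 6 cannot be read as particular to these genes. With 1 vector library left out, the genes of the 36 past the 2-fold rule changed with the library left out in both single knockouts. The median log2 ratio of MRCKβ KO then lay between -0.022 and 0.56. The fitted log2 fold change of each gene moved by less than 1 SD in 324 of 324 values under other scalings, filters, tools and units, where it changed sign in 5 values of 3 genes. It moved by more in 16 of 144 values when 1 replicate was left out and changed sign in 39 values of 23 genes. The 33 genes lower in vector 2 and the 33 lower in DKO 2 were counted again under RLE scaling, library size alone and FPKM, alternatives chosen after seeing the data, and each count stayed within 1.5 times. For a count of 33 out of 36 this limit is loose, since only a large fall would have passed it. With 2 libraries a side and 1 per single knockout, differences smaller than the spread between the vector libraries were not detectable here. Differences beyond that spread could also go uncalled. ME1 had a fitted log2 fold change of -0.66 and a log2 ratio of 0.06 between the vector libraries, and edgeR's quasi-likelihood test did not call it.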

Other observations

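A pair of lipid genes outside the 36 had wide ranges between libraries and were chosen after their values were seen. FABP5, a fatty acid carrier, was at 22.2 and 6.39 FPKM in the vector libraries 1 and 2, 35.6 in MRCKα KO, 17.1 with MRCKβ targeted, and 21.7 and 1.05 in DKO 1 and DKO 2, on 8 to 268 counts. Vector 2 and DKO 2 were the 2 lowest libraries, as they were for SCD, and MRCKα KO was the highest. LPIN2, a phosphatidate phosphatase like LPIN1, was at 39.0 FPKM in vector 1 but 19.9 in vector 2, 31.1 in DKO 1 but 15.4 in DKO 2, 27.1 in MRCKα KO and 36.2 in MRCKβ KO. Its libraries stood in the order of most of the sterol genes, with vector 1 and MRCKβ KO at the top and vector 2 and DKO 2 at the bottom.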
